A study of Arabidopsis thaliana with 16 samples.

Results

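The RALF-like (RALFL) transcripts of Arabidopsis thaliana encode small secreted peptides, and 7 of them were measured above a dim level in whole seedlings. They were taken as the probe sets of the Affymetrix ATH1 array that the platform's gene table pairs with a RALFL gene alone and whose log2 value reached 4 on at least 2 of the 16 arrays. The table held 11 such probe sets, 1 for each of 11 genes, among 34 family genes in the RefSeq gene table. The 7 that passed were RALFL22 (AT3G05490), RALFL24 (AT3G23805), RALFL27 (AT3G29780), RALFL31 (AT4G13950), RALFL32 (AT4G14010), RALFL33 (AT4G15800) and RALFL34 (AT5G67070), among 9454 probe sets that passed out of 22746. RALFL18, RALFL25, RALFL26 and RALFL28 did not pass. Their values lay between 2.36 and 2.49 on every array, close to the array floor of 2.36, so nothing is said here of how they responded. RALFL25 and RALFL26, both known from pollen, are neighbouring genes.

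RALF peptides were named for the rise in extracellular pH that they cause in cell cultures. They are cut from longer precursors, in some cases by the protease S1P, and are sensed at the cell surface by receptor kinases of the CrRLK1L family such as FERONIA (FER) together with small LLG co-receptors. They also bind leucine-rich repeat extensins (LRX) of the cell wall, and several of them restrain cell expansion in roots and hypocotyls.

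The study asked how DELLA proteins, the repressors of gibberellin signalling, affect transcription driven by the cytokinin-activated type-B response regulator ARR1. All seedlings were of the Columbia-0 background, grown for 5 days, moved to liquid medium, and 6 days old by their tissue label. The transgenic line 35S::ARR1ΔDDK:GR makes ARR1 without its DDK domain, fused to the glucocorticoid receptor, from the broadly active 35S promoter, so that dexamethasone (DEX) sends the protein to the nucleus in most tissues and not only where ARR1 normally works. Each group held 2 arrays, described as biological replicates with no further detail, and p-values therefore cover no more than the spread between these arrays.

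The line was given the gibberellin synthesis inhibitor paclobutrazol (PAC, 10 µM), gibberellin A3 (GA3, 50 µM) and 5 µM DEX (ARR1_PAC_GA_DEX), PAC and GA3 (ARR1_PAC_GA), PAC and DEX (ARR1_PAC_DEX), or PAC alone (ARR1_PAC). Wild type was given PAC, GA3 and 5 µM of the cytokinin benzyladenine (BA) (Col_PAC_GA_BA), PAC and BA (Col_PAC_BA), DEX alone (Col_DEX), or nothing (Col_mock). PAC and GA3 lasted 18 h before the last step, and DEX or BA were present for 3 h. Wild type given PAC alone was not analysed here, so BA was set against the line without DEX, where genotype and BA cannot be told apart. Wild type received DEX without PAC, so any response net of wild type carries that difference as well.

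Replicate arrays correlated at 0.987 to 0.993 over all probe sets, and array medians lay between 3.08 and 3.12. The type-A response regulators ARR16 and ARR15, early targets of cytokinin signalling, rose with DEX in the line by 5.00 and 3.33 in PAC and by 5.10 and 4.23 in PAC with GA3 (log2), and ARR16 rose by 1.22 with DEX in wild type (limma adjusted p = 0.0484). Of 10 type-A genes listed, these 2 had a probe set. ARR15 lay at 2.41 to 2.87 in the line without DEX, near the floor, and reached 4 only with DEX in the line or with BA. This selection favours its rise, and the floor limits the size seen. Shoot markers RCA (Rubisco activase) and PSBW (a photosystem II subunit) lay between 10.1 and 11.5, and the root marker PYK10 (a root β-glucosidase) between 10.7 and 11.5. Of the other root markers, EXPA7 lay between 2.36 and 2.82, near the floor, and EXPA18 between 3.27 and 5.03. XTH20 was also far below PYK10. The sign of both organs in the RNA thus rests, for the root, on PYK10. The summed log2 values of the 4 root markers with a probe set were 21.5 to 22.7 in ARR1_PAC_GA_DEX against 20.7 to 21.1 in ARR1_PAC_GA, 20.7 to 21.6 in ARR1_PAC_DEX against 20.3 to 21.0 in ARR1_PAC, and 23.6 to 23.7 in Col_DEX against 21.1 to 21.6 in Col_mock. The part of such shifts in the results was not tested, and in whole seedlings fewer cells of a type cannot be told apart from less RNA per cell.

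RALFL33, RALFL32, RALFL27 and RALFL22 differed among the 8 groups, and RALFL34, RALFL24 and RALFL31 did not pass the same test. RALFL33 had the widest range of group means among the 7, 1.34 on the log2 scale or 2.53-fold, with Col_PAC_BA highest and ARR1_PAC_DEX lowest. RALFL32 spanned 1.20 (2.29-fold) and RALFL27 1.07 (2.098-fold), both with ARR1_PAC highest and ARR1_PAC_GA_DEX lowest. RALFL22 spanned 0.98 (1.97-fold), with Col_DEX highest and ARR1_PAC lowest. The other ranges were 0.67 for RALFL34, 0.52 for RALFL24 and 0.35 for RALFL31. The median range of the 7 was 0.98, beside 0.69 for all probe sets tested. By limma's moderated F test 4 of the 7 passed an adjusted p of 0.05, against 28.6% of all probe sets tested: RALFL32 (adjusted p = 0.00309), RALFL27 (adjusted p = 0.0105), RALFL33 (adjusted p = 0.0280) and RALFL22 (adjusted p = 0.0353). RALFL34 (adjusted p = 0.269), RALFL24 (adjusted p = 0.376) and RALFL31 (adjusted p = 0.524) did not. The call of RALFL32 was kept in all 22 alternatives, and that of RALFL27 was lost only when every probe set was tested (adjusted p = 0.0537). That of RALFL33 was lost in 5 of 22, among them without either ARR1_PAC_DEX array, ARR1_PAC_GA_DEX replicate 2 or Col_mock replicate 2 (adjusted p 0.0504 to 0.0974). That of RALFL22 was lost in 11 of 22, among them centring on the 75th percentile and leaving out Col_DEX replicate 2 or any array of ARR1_PAC, ARR1_PAC_DEX, ARR1_PAC_GA_DEX or Col_mock (adjusted p 0.0512 to 0.112). RALFL34 passed without ARR1_PAC replicate 1 (adjusted p = 0.0454).

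**Figure D1:**
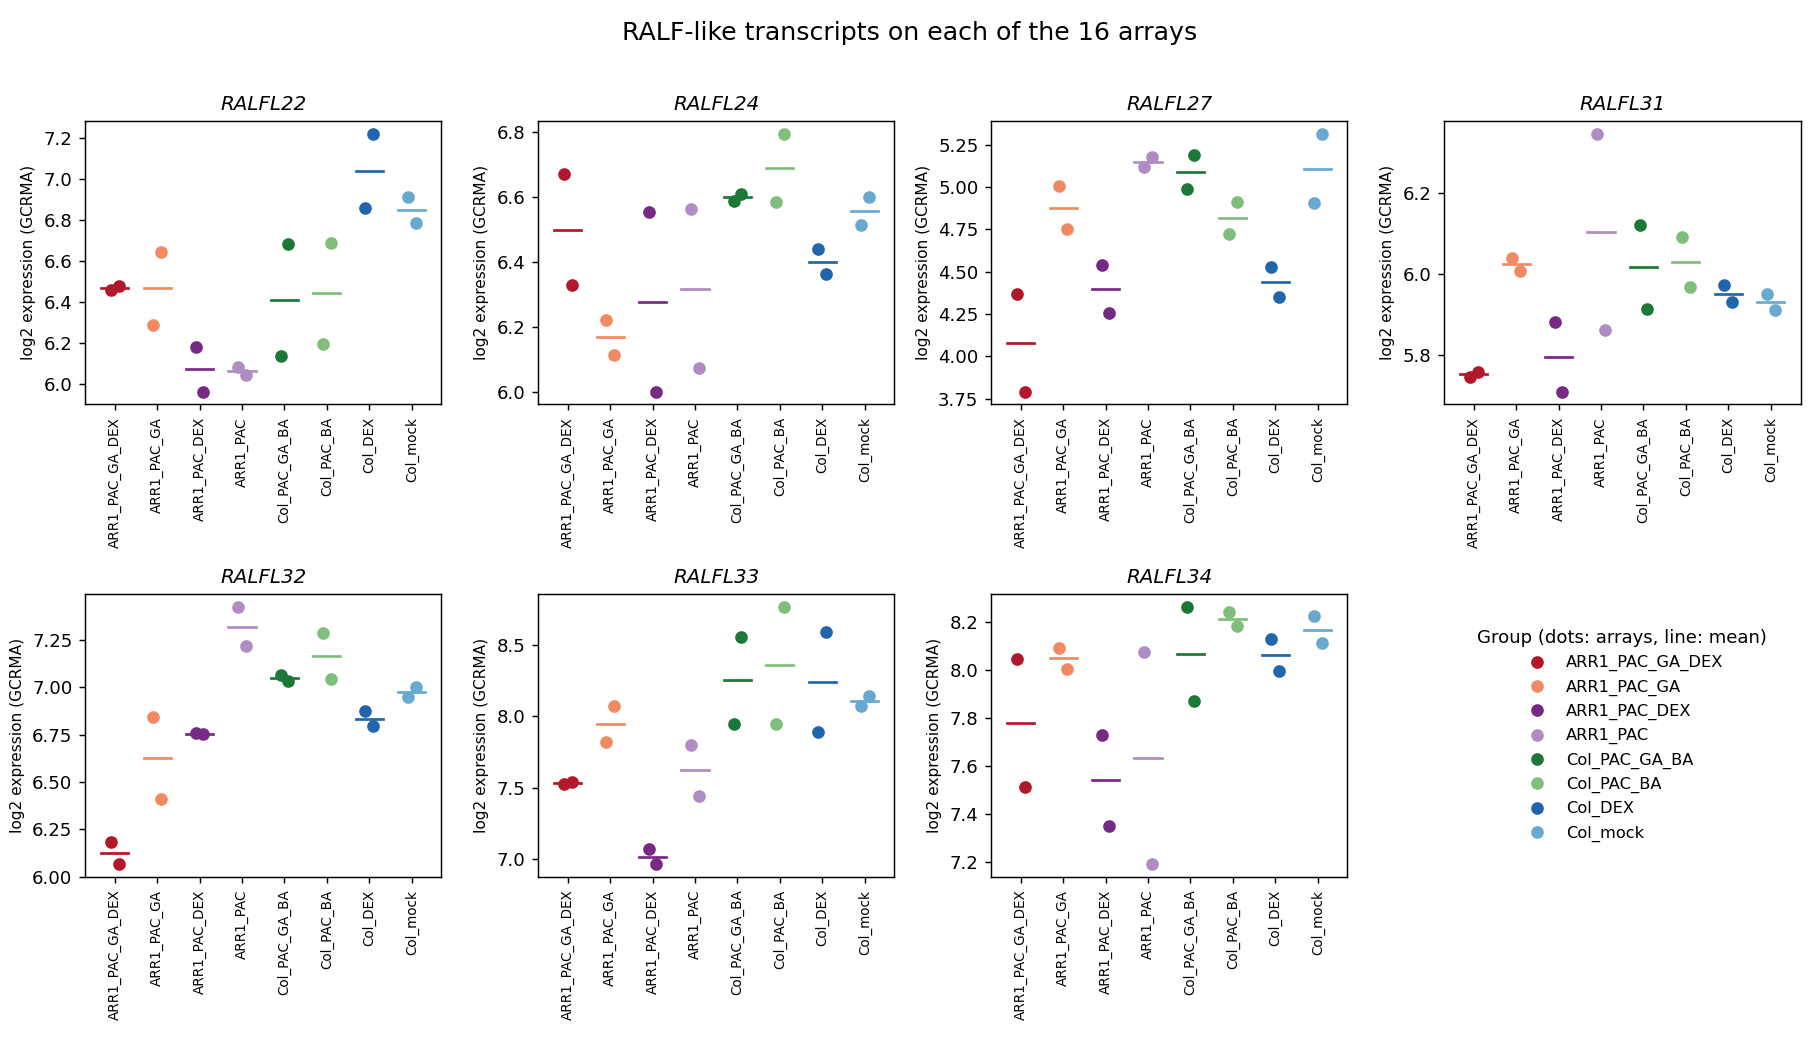
Log2 value of each of the 7 transcripts (vertical axis, its own scale in each panel) in the 8 groups (horizontal axis). Points are single arrays and lines are group means of 2 arrays. RALFL27 sits lowest in the 3 groups given DEX, and RALFL33 sits lower in the 4 groups of the line than in the 4 groups of wild type.

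RALFL27 was lower with DEX in the line, with and without GA3. Its log2 values were 4.54 and 4.25 in ARR1_PAC_DEX, against 5.12 and 5.18 in ARR1_PAC. With GA3 they were 4.37 and 3.79 in ARR1_PAC_GA_DEX, against 5.01 and 4.75 in ARR1_PAC_GA. In both comparisons all arrays with DEX lay below all arrays without it. The transcript fell by 0.75 ± 0.21 in PAC (log2 difference ± SE, n = 2 arrays per group; 1.69-fold; limma adjusted p = 0.0268) and by 0.80 ± 0.21 in PAC with GA3 (1.74-fold; limma adjusted p = 0.0194). Over the 8 arrays of the line, an average added after the data were seen, the fall was 0.78 ± 0.15 (limma adjusted p = 0.00157).

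The same transcript was also lower with DEX in wild type, which lacks the transgene. It measured 4.53 and 4.35 in Col_DEX, against 4.91 and 5.31 in Col_mock, and the arrays did not overlap. The difference was −0.67 ± 0.21 (unadjusted p = 0.00759 in limma), which did not pass after adjustment (adjusted p = 0.349). Net of wild type, the change of the line in PAC was −0.09 (95% interval −0.73 to 0.56) and the average change of the line was −0.11 (−0.67 to 0.45). The fall of RALFL27 in the line is thus not shown to differ from that in wild type given DEX, nor to need the transgene. The 3 lowest group means of RALFL27 were the 3 groups with DEX, at 4.08, 4.40 and 4.44, and these did not differ from each other beyond their 95% interval of 0.46. Root marker sums, which include 1 dim marker, were higher on all DEX arrays in PAC with GA3 and in wild type, while those in PAC overlapped. None of the 3 root markers tested was called for DEX in wild type or in PAC. XTH20, a root marker, rose by 0.70 with DEX in PAC with GA3 (limma adjusted p = 0.0263), where PYK10 (0.26) and EXPA18 (0.08) did not pass. It averaged below the filter level of 4 in ARR1_PAC_GA, so passing the filter through other groups favours its rise. The part of such markers in the fall was not tested.

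Each separate fall of RALFL27 rested on few arrays. In PAC the call was lost without any of the 4 arrays compared in turn, with differences of −0.61 to −0.90 and limma adjusted p values of 0.0506 to 0.150. In PAC with GA3 it was lost without ARR1_PAC_GA replicate 1 (−0.67, limma adjusted p = 0.150) and without ARR1_PAC_GA_DEX replicate 2 (−0.51, limma adjusted p = 0.216). Both were also lost when every probe set was tested (limma adjusted p = 0.0765 in PAC and 0.0643 in PAC with GA3), when only the groups compared were fitted (0.0952 and 0.0918) and by the Z test. The average over the line kept its call without any single array, and lost it by the Z test.

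RALFL32 was lower with DEX in PAC, and lower with GA3 when the line's arrays were averaged. Its values were 6.76 and 6.75 in ARR1_PAC_DEX, against 7.43 and 7.22 in ARR1_PAC, a fall of 0.57 ± 0.16 (1.48-fold; limma adjusted p = 0.0315). With GA3 they were 6.18 and 6.07 in ARR1_PAC_GA_DEX, against 6.84 and 6.41 in ARR1_PAC_GA. There too the arrays did not overlap, but the difference of −0.50 ± 0.16 narrowly missed the threshold (limma adjusted p = 0.0512). It passed with quantile normalization (limma adjusted p = 0.0465), with centring on the 75th percentile (0.0405), with a floor of 6 (0.0478) and without ARR1_PAC_GA replicate 2 (−0.72, 0.0282). The average fall with DEX was 0.53 ± 0.12 (limma adjusted p = 0.00345).

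In wild type RALFL32 measured 6.88 and 6.79 in Col_DEX, against 6.95 and 7.002 in Col_mock, a difference of −0.14 ± 0.16 that did not pass. The average response of the line net of that in wild type was −0.39 (95% interval −0.83 to 0.04; limma adjusted p = 0.264). A stronger response of RALFL32 in the line than in wild type was therefore not shown at this number of arrays. The call in PAC was lost without any of the 4 arrays compared (−0.46 to −0.67, limma adjusted p 0.0503 to 0.145), when only the groups compared were fitted (0.151) and by the Z test. The average kept its call without any single array, and lost it by the Z test.

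Over the 7 transcripts, 2 fell with DEX in PAC and none rose, where 17.4% of all probe sets tested were called and 8.31% were called lower. In PAC with GA3, 1 fell and none rose, beside 18.1% called and 7.66% called lower. In the average over the line 2 fell, beside 32.4% called and 15.5% called lower. The median log2 difference of the 7 in PAC was −0.31, beside −0.03 for all probe sets, and 6 of the 7 lay below 0, as did 53.1% of all. In PAC with GA3 the median was −0.27, beside −0.02, and 5 of the 7 lay below 0, as did 51.8% of all.

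**Figure D2:**
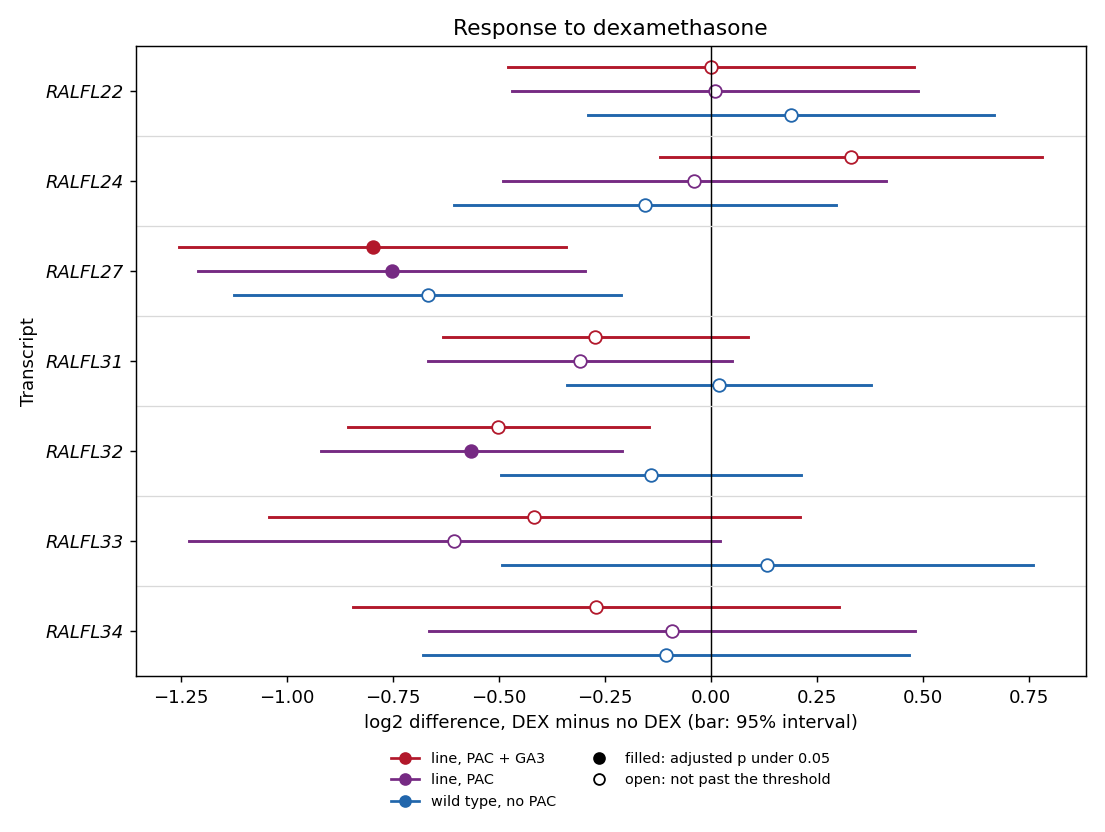
Log2 difference with DEX minus without DEX (horizontal axis) for each transcript in the line given PAC and GA3, the line given PAC, and wild type without PAC. Bars are 95% intervals from limma and filled points passed an adjusted p of 0.05. RALFL27 lies to the left in all 3 settings (−0.80, −0.75 and −0.67), while RALFL33 lies to the left in the line (−0.42 and −0.60) and not in wild type (0.13).

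The DEX response of no member was shown to depend on GA3. None of the 7 passed limma's test of the difference of the DEX responses, PAC minus PAC with GA3, and 0% of all probe sets did. At an unadjusted p under 0.05 there were 0 members, beside 1.99% of all (188 probe sets), and the Z test, an alternative described with the methods, called 0 members, beside 4.95% of all (468 probe sets). The difference was 0.04 (95% interval −0.60 to 0.69) for RALFL27, −0.06 (−0.57 to 0.44) for RALFL32 and −0.19 (−1.07 to 0.70) for RALFL33, intervals that leave room for differences as large as the responses themselves.

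In wild type DEX called none of the 7 by limma, beside 0.740% of all probe sets, with 1 (RALFL27) at an unadjusted p under 0.05, beside 6.83% of all, and the same 1 by the Z test, beside 4.15% of all. Net of wild type, the DEX response in PAC called none of the 7, beside 4.61% of all, and the average response none, beside 8.86%. In both tests 0 members had an unadjusted p under 0.05 in limma, beside 19.2% and 23.7% of all, and 0 were called by the Z test, beside 5.87% and 5.96% of all.

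RALFL32 was lower with GA3 in the line. The GA3 and DEX comparisons of the line use the same 8 arrays. Its values were 6.84 and 6.41 in ARR1_PAC_GA, against 7.43 and 7.22 in ARR1_PAC, and 6.18 and 6.07 in ARR1_PAC_GA_DEX, against 6.76 and 6.75 in ARR1_PAC_DEX. The arrays with GA3 lay below those without it in both pairs. The differences were −0.70 ± 0.16 without DEX (limma adjusted p = 0.1004) and −0.63 ± 0.16 with DEX (limma adjusted p = 0.241), neither past the threshold. Averaged over the 8 arrays of the line, a comparison added after the data were seen, the fall was 0.66 ± 0.12 (1.58-fold; limma adjusted p = 0.0166). Of the 7, it was the only one called there, beside 2.83% of all probe sets called and 0.910% called lower. This call was lost without ARR1_PAC_DEX replicate 2, ARR1_PAC_GA replicate 2 or ARR1_PAC_GA_DEX replicate 2 (limma adjusted p 0.0602 to 0.0702), and when only the line's groups were fitted (0.0945).

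In wild type given BA, RALFL32 measured 7.07 and 7.04 in Col_PAC_GA_BA, against 7.29 and 7.05 in Col_PAC_BA, a difference of −0.12 ± 0.16. The GA3 difference of the line without DEX, net of that in wild type with BA, was −0.58 (95% interval −1.08 to −0.08; unadjusted p = 0.0268 in limma), and did not pass after adjustment (adjusted p = 0.338). The means of RALFL32 in the line were 6.13 in ARR1_PAC_GA_DEX, 6.63 in ARR1_PAC_GA, 6.76 in ARR1_PAC_DEX and 7.32 in ARR1_PAC. In the sorted order of its 8 group means, the step between ARR1_PAC_GA_DEX and ARR1_PAC_GA was the only one larger than its unadjusted 95% interval (0.50 against 0.35). It is the DEX comparison in PAC with GA3 given above, which missed the threshold (limma adjusted p = 0.0512). No neighbouring means of the other 6 transcripts differed beyond theirs. Sorting puts near means side by side, so such small steps do not show that groups are alike.

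RALFL22, which is linked with LRX proteins in the response to salt, stood higher with GA3 in the line on every array, but did not pass. It measured 6.29 and 6.64 in ARR1_PAC_GA, against 6.08 and 6.04 in ARR1_PAC, and 6.46 and 6.48 in ARR1_PAC_GA_DEX, against 6.18 and 5.96 in ARR1_PAC_DEX. The average difference was 0.40 ± 0.16 (limma adjusted p = 0.155). In wild type with BA it was −0.03 ± 0.22.

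By limma none of the 7 was called for GA3 in any single comparison. Without DEX in the line 0.116% of all probe sets were called, with DEX 0%, and in wild type with BA 0.0317%. At an unadjusted p under 0.05 there was 1 member (RALFL32) in each comparison of the line and 0 in wild type, beside 15.3% of all probe sets without DEX, 9.81% with DEX and 10.7% in wild type. The Z test called 1, 1 and 0 members in the same order, beside 5.21%, 4.43% and 5.09% of all. A count of 1 in 7 is near the unadjusted shares. For GA3 in the line without DEX net of wild type, 0% of all probe sets and none of the 7 were called, with 1 (RALFL32) at an unadjusted p under 0.05, beside 13.0% of all, and 0 by the Z test, beside 5.64% of all.

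**Figure D3:**
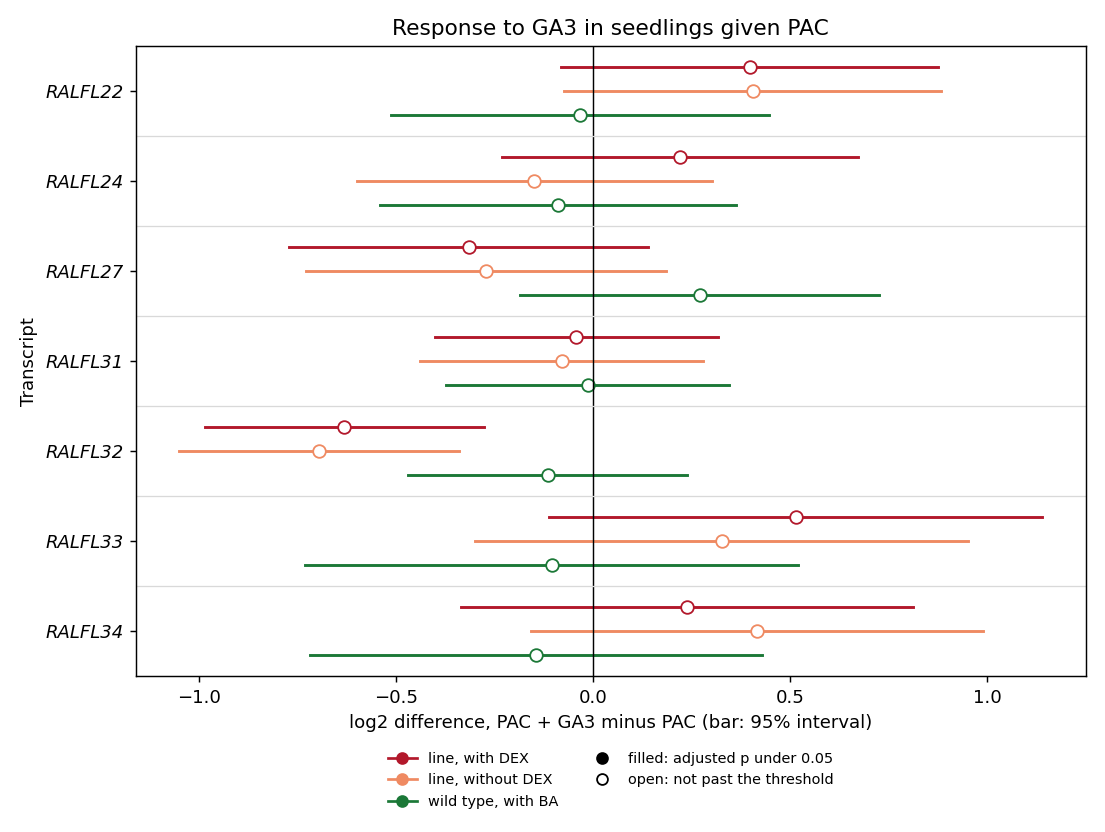
Log2 difference with GA3 minus without GA3 (horizontal axis) for each transcript, in seedlings given PAC: the line with DEX, the line without DEX, and wild type with BA. Bars are 95% intervals from limma, and no single comparison passed an adjusted p of 0.05. RALFL32 lies at −0.63 and −0.70 in the line and at −0.12 in wild type.

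RALFL33, which with its relative RALF23 acts through FER to damp immune signalling, stood lower in the line than in wild type. Its values over the 8 arrays of the line ran from 6.96 to 8.07 with a median of 7.53, and over the 8 arrays of wild type from 7.89 to 8.77 with a median of 8.11. Of the line's arrays 7 lay below every wild type array, and the exception was ARR1_PAC_GA replicate 2 at 8.07. The 2 sets were given different agents, so genotype and treatment cannot be told apart, and no test was made of this split.

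With DEX in the line RALFL33 measured 7.07 and 6.96 in ARR1_PAC_DEX, against 7.80 and 7.44 in ARR1_PAC, and 7.52 and 7.54 in ARR1_PAC_GA_DEX, against 7.82 and 8.07 in ARR1_PAC_GA. All arrays with DEX were lower, but the differences of −0.60 ± 0.29 (limma adjusted p = 0.181) and −0.42 ± 0.29 (limma adjusted p = 0.371) did not pass. The average, −0.51 ± 0.20, also missed the threshold (limma adjusted p = 0.0741) and passed with quantile normalization (0.0429) or when only the line's 4 groups were fitted (0.0213). In wild type DEX gave 7.89 and 8.59 in Col_DEX, against 8.07 and 8.14 in Col_mock, with one array on each side of the untreated pair. Its average response net of wild type was −0.64 (95% interval −1.41 to 0.12). RALFL33 had the widest spread within groups of the 7 (SD 0.289 from the fit), with a 95% interval of 0.63 to either side, and its replicates lay up to 0.82 apart, in Col_PAC_BA.

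RALFL33 stood higher with BA in PAC than in the line without BA, but did not pass. It measured 7.95 and 8.77 in Col_PAC_BA, against 7.80 and 7.44 in ARR1_PAC, a difference of 0.74 ± 0.29 with an unadjusted p of 0.0247 and an adjusted p of 0.196 in limma. Against Col_mock, which shares the genotype but had no PAC, the difference of Col_PAC_BA was 0.25 ± 0.29. ARR1_PAC was 0.49 below Col_mock.

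RALFL34, which acts in lateral root initiation and binds the receptor kinase THESEUS1, showed no difference past the threshold. It measured 8.24 and 8.19 in Col_PAC_BA, against 8.08 and 7.19 in ARR1_PAC, a difference of 0.58 ± 0.26 (limma adjusted p = 0.265). The spread of the ARR1_PAC pair, 0.88, was the widest between any replicates of the 7. Without ARR1_PAC replicate 1 the difference was 1.02 and passed (limma adjusted p = 0.0408). With DEX in PAC the values were 7.73 and 7.35 in ARR1_PAC_DEX, inside the range of ARR1_PAC.

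RALFL24 and RALFL31 varied little. RALFL24 ran from 6.00 to 6.67 over the line and from 6.36 to 6.79 over wild type, and its largest DEX difference was 0.33 ± 0.21, with 6.67 and 6.33 in ARR1_PAC_GA_DEX against 6.22 and 6.11 in ARR1_PAC_GA. RALFL31 ran from 5.71 to 6.35 over the line and from 5.91 to 6.12 over wild type. Its average DEX difference in the line was −0.29 ± 0.12 (limma adjusted p = 0.0761), and without ARR1_PAC replicate 2 it was −0.41 and passed (0.0134). It measured 5.75 and 5.76 in ARR1_PAC_GA_DEX against 6.04 and 6.01 in ARR1_PAC_GA, and 5.88 and 5.71 in ARR1_PAC_DEX against 6.35 and 5.86 in ARR1_PAC.

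For BA none of the 7 was called by limma, beside 2.41% of all probe sets in PAC and 3.82% in PAC with GA3. At an unadjusted p under 0.05 there were 2 in PAC (RALFL33 and RALFL34) and 1 in PAC with GA3, beside 18.5% and 21.3% of all probe sets, and the Z test called 0 in both, beside 4.98% and 4.64% of all. Of the 3 root markers tested, XTH20, which encodes a xyloglucan endotransglucosylase, rose in the same comparisons by 1.80 in PAC and by 1.94 in PAC with GA3 (limma adjusted p = 0.000372 and 0.000154), while PYK10 (−0.28 and 0.34) and EXPA18, a root hair expansin (−0.23 and −0.33), did not pass. XTH20 averaged below the filter level of 4 in ARR1_PAC and ARR1_PAC_GA and above it with BA. This selection favours its rise, so the XTH20 calls are no independent support. The shoot marker RCA fell by 0.64 in PAC with GA3 (limma adjusted p = 0.0494). The part of these markers in the values was not tested. The 1 member was RALFL32, at 7.07 and 7.04 in Col_PAC_GA_BA against 6.84 and 6.41 in ARR1_PAC_GA (0.42 ± 0.16, limma adjusted p = 0.159). Since both BA comparisons use the line's arrays without DEX, they share them with the DEX and GA3 comparisons above.

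RALFL22 was lower than in untreated wild type on all arrays given PAC. It measured 6.08 and 6.04 in ARR1_PAC, against 6.91 and 6.79 in Col_mock, a difference of −0.79 ± 0.22 (unadjusted p = 0.00360 and adjusted p = 0.136 in limma). The differences from the same Col_mock arrays were −0.38 ± 0.22 for ARR1_PAC_GA, −0.41 ± 0.22 for Col_PAC_BA and −0.44 ± 0.22 for Col_PAC_GA_BA, each with arrays that did not overlap. Its values in wild type given PAC were 6.13 and 6.68 in Col_PAC_GA_BA and 6.19 and 6.69 in Col_PAC_BA. None of these differences passed, and they share their control arrays. No group differed from Col_mock in PAC alone. In the line genotype and PAC cannot be told apart, and in wild type PAC and BA cannot.

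Against Col_mock limma called none of the 7 in any of the 4 comparisons. The shares of all probe sets called were 8.75% for Col_PAC_BA, 6.84% for Col_PAC_GA_BA, 0.159% for ARR1_PAC and 0.328% for ARR1_PAC_GA. At an unadjusted p under 0.05 there was 1 member, RALFL22 in ARR1_PAC, beside 15.7% of all probe sets there. The other 3 had 0 members, beside 26.3% of all for Col_PAC_BA, 24.8% for Col_PAC_GA_BA and 6.47% for ARR1_PAC_GA. The Z test called the same 1 in ARR1_PAC, beside 5.26% of all, and 0 in the other 3, beside 4.96%, 4.80% and 4.68% of all. Of the 3 root markers tested, 1 (XTH20) was called higher by limma in Col_PAC_BA and in Col_PAC_GA_BA. It averaged below the filter level of 4 in Col_mock and above it in these groups, so this selection favours its rise. Of the 2 shoot markers, 1 was called lower in each of these groups. No organ marker was called in ARR1_PAC or ARR1_PAC_GA, and the part of such markers in the values was not tested. XERICO, a gibberellin-responsive gene, was the only gene to pass the filter among 4 with a probe set of 10 gibberellin feedback genes listed. It reached the filter level of 4 only on the Col_mock arrays (4.01 and 4.31), so this selection favours a fall from Col_mock. Its difference was −0.95 in Col_PAC_GA_BA (3.04 and 3.37, limma adjusted p = 0.0327), and that call is no independent support. It was also below Col_mock, without a call, in ARR1_PAC_GA (−1.07), Col_PAC_BA (−0.57), ARR1_PAC (−0.47) and Col_DEX (−0.60).

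**Figure D4:**
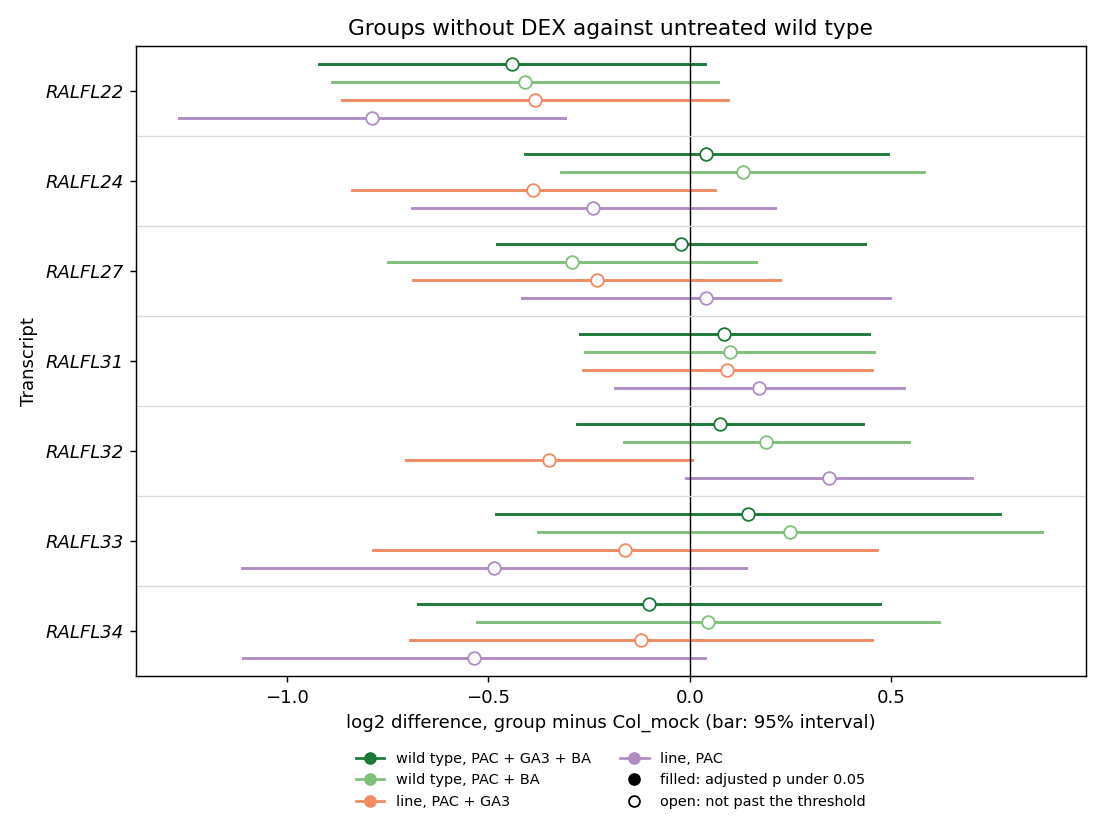
Log2 difference from untreated wild type (horizontal axis) for each transcript in the line given PAC or PAC with GA3 and in wild type given PAC with BA or PAC, GA3 and BA. Bars are 95% intervals from limma, and no difference passed an adjusted p of 0.05. RALFL22 lies below 0 in all 4 groups (−0.79, −0.38, −0.41 and −0.44).

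The receptors and wall partners of RALF peptides were thinly covered. Of 15 genes listed as receptors and co-receptors 7 had a probe set and 3 passed the filter, of 11 LRX genes 8 had one and 1 passed, and of 13 processing enzymes and downstream partners 3 had one and 1 passed. FER ran from 4.52 to 5.38 over the 16 arrays, and its average difference with GA3 in the line was 0.50 ± 0.13, which missed the threshold (limma adjusted p = 0.0528). THE1, the THESEUS1 receptor kinase, averaged −0.24 ± 0.17 with DEX in the line. CVY1, another CrRLK1L kinase, fell by 0.46 ± 0.15 in the average DEX response of the line (limma adjusted p = 0.0301), where 32.4% of all probe sets were called and 15.5% called lower. Its values with DEX were near the filter level, 4.10 and 4.35 in ARR1_PAC_DEX and 3.85 and 4.33 in ARR1_PAC_GA_DEX. CVY1 was the 1 gene called among the 5 of these 3 lists that were tested, and none was called in another comparison. LRX4 averaged −0.07 ± 0.11 and the calmodulin-like CML38 −0.77 ± 0.51 with DEX.

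Across the 16 arrays RALFL27 and RALFL32 moved together (Pearson r = 0.741, Spearman rho = 0.691), as did RALFL22 and RALFL33 (r = 0.704, rho = 0.759), while RALFL22 and RALFL32 did not (r = −0.21, rho = −0.20). RALFL31 and RALFL32, with 10 coding genes between them on their chromosome, had r = 0.657 (rho = 0.582). RALFL24 and RALFL34, which lie on different chromosomes, had a similar r of 0.663 (rho = 0.529). The 16 points are 8 groups in pairs on a shared normalization, so these values are a description. Among named probe sets, those most like RALFL32 were AT3G47295 (r = 0.927, rho = 0.935), AT1G25275 (r = 0.898, rho = 0.918) and AT4G01130 (r = 0.881, rho = 0.794). Those most like RALFL27 were AT1G02810 (r = 0.868), AT3G01860 (r = 0.852) and AT1G51400 (r = 0.846), and those most like RALFL33 were AT1G65490 (r = 0.869), SFP1 (r = 0.869) and AT5G11070 (r = 0.841).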

How the data were processed

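The deposited values were log2 expression values per probe set from Affymetrix ATH1 arrays, which the authors made with GCRMA according to the submitters' processing notes (version not given in the sources used here). GCRMA removes background, normalizes the arrays together and combines the probes of each set. All 16 columns belonged to a labelled sample, and 0 did not. Here 64 control probe sets were dropped, and a probe set was tested if it reached a log2 value of 4 on 2 or more arrays (13292 were dim). Names were taken from the platform's table and updated through RefSeq (assembly TAIR10.1, used for names and gene order only). Of the 11 family probe sets 10 were matched by gene identifier and RALFL22 by symbol. Of the 22746 probe sets 13513 had 1 gene, 503 several and 8730 none.

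Group means were fitted to the 16 arrays together, without covariates, using lmFit, contrasts.fit and eBayes of limma 3.58.1 (R 4.3.3), with 8 residual and 4.66 prior degrees of freedom. Tests were two-sided. The Benjamini-Hochberg adjustment ran over the 9454 probe sets, and calls were made at an adjusted p under 0.05. The number of arrays limits the precision, and the median 95% interval of a difference between a pair of groups was 0.44 to either side.

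The members, lists and tests were chosen with earlier results of these data known. The text names the 7 members, the genes of each list that were called in a comparison (at most 3 per list, by adjusted p), and the 3 named probe sets most correlated with each of the 3 members of widest range. FER, THE1, LRX4, CML38 and the organ markers that were not called were chosen after their values were seen, as were the averages over the line and the added differences from wild type. The Z test scales group means to their spread, sets each difference against the spread of all differences, and calls it beyond 1.96. It is one reading of the study's Z-score transformation, whose details are not stated. The alternatives besides it were testing every probe set, a floor of 6 on the log2 scale, normalizing by quantiles, centring each array on its 75th percentile, the replicate number as a block, fitting only the groups compared, and leaving out each array in turn. Figures were drawn with matplotlib 3.10.9.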

Additional observations from a re-analysis of the deposited data

How the results depend on the processing

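Of 1843 alternative values of single transcripts, 1787 kept their side of the threshold, 41 lost a call and 15 gained one. No called value changed sign, and 98 uncalled ones did. For DEX in PAC, where 2 of the 7 were called, the count was 1 without the filter, 1 with a floor of 6 (which leaves RALFL27 out), 0 when only the groups compared were fitted, 0 by the Z test, and 0 to 0 with an array left out. For DEX in PAC with GA3 (1 called) it was 0 without the filter, 2 with quantile normalization, 2 with centring on the 75th percentile, 0 with only the groups compared, 0 by the Z test, and 0 to 2 with an array left out. The average DEX response (2 called) gave 1 with a floor of 6 and 0 by the Z test, and 2 to 3 with an array left out. The average GA3 response (1 called) gave 0 with only its groups, and 0 to 1 with an array left out. The test among the 8 groups (4 called) gave 1 without the filter, which tests 22746 probe sets, and 2 to 4 with an array left out. The Z test called 1 for DEX in wild type, 1 and 1 for GA3 in the line without and with DEX, and 1 for ARR1_PAC against Col_mock, where limma called 0. BA in PAC gave 0 to 1 with an array left out. A group reduced to 1 array took its spread from the other groups. Beyond these, the causes of the changes were not tested.

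The replicate numbers were not taken to pair the samples, since the labels give them no shared origin and not every pair of groups passed the check: deviations of same-numbered arrays correlated at −0.33 to 0.48, over 0.1 in 21 of 28 pairs of groups. With the replicate number as a block, DEX in PAC with GA3 called 2 members (and 1948 probe sets, beside 1707 without it), RALFL32 being added (limma adjusted p = 0.0338), and RALFL33 passed in the average DEX response (0.0448). The block changed no other call of the 7.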

Other observations

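Replicate 1 of RALFL34 was higher than replicate 2 in 8 of 8 groups, by 0.06 to 0.88 on the log2 scale. RALFL31 and RALFL32 were higher in replicate 1 in 7 of 8 groups, and RALFL33 in 2 of 8. Of the 9454 probe sets tested, 393 (4.16%) had the same sign in all 8 groups and 1.11% were higher in replicate 1 in all 8. The numbers are names in the labels, with nothing stated of a shared day or batch.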
